A study of Mus musculus with 11 samples.

Results

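The acute phase and complement genes described here are Lcn2, Saa1, Saa2, Saa3, Hp, Orm1, C3, Cfb, Lbp and Steap4. Each gene was represented by the probe set that carried its symbol alone in the platform annotation, taking the highest mean over all 11 arrays where there was a choice. Of the 10 genes, 9 had such a probe set, out of 19938 genes with one in all; C3 had none and was not analysed here. Each of the 9 had 1 probe set, so no choice between probe sets was needed. Total RNA of whole pancreas from wild-type C57Bl6J mice was labelled with biotin and measured on Affymetrix arrays, 1 for each sample. The caerulein group (6 arrays) came from mice given 9 hourly intraperitoneal injections of caerulein, with a listed dose of 50 mg/kg whose unit could not be checked. Caerulein is an analogue of cholecystokinin that overstimulates the enzyme-secreting acinar cells and causes acute pancreatitis. The NaCl group (5 arrays) came from control mice given sodium chloride; the series text counts 4 controls, whereas the labels name 5. The mice's age and sex and the time from the last injection to tissue collection are absent from the labels. Nothing in the labels says that each array is a separate mouse, so p-values measure the spread between arrays. Caerulein replicate 6 read higher than the other caerulein arrays for Saa3 and Hp. It also had the highest mean macrophage, neutrophil, fat, and stellate and fibroblast markers of its group. The differences of Saa3 and Hp are given with and without it.

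Acute phase proteins are secreted into plasma during inflammation, mainly by the liver, when interleukin 6 acts through STAT3 and interleukin 1 and tumour necrosis factor act through NF-kB and the C/EBP factors. Some of them, lipocalin 2, serum amyloid A3 and complement factor B among them, are also made by epithelia, macrophages and fat cells. Complement factor B and C3 form the alternative pathway of complement, and Lbp hands bacterial lipopolysaccharide to the receptor complex of Cd14, Ly96 and Tlr4. Acute pancreatitis is known for a rise of acute phase proteins in blood, and whole pancreas RNA shows only what the organ and the tissue attached to it transcribe.

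In caerulein pancreas Lcn2 and Saa3 were strongly higher, and Cfb, Lbp and Steap4 were moderately higher. Hp did not pass the threshold, nor did Saa1, Saa2 and Orm1. Thus 5 of 9 genes were called higher and 0 lower (limma, adjusted p under 0.05 over all probe sets), with log2 differences, caerulein minus NaCl, between -0.20 and 4.27 and a median of 0.59. Over the 19938 named genes 54.6% were called, 20.3% higher and 34.3% lower, and the median difference was -0.13. The same shares are the background for the count of every gene list below. Over all 35556 probe sets 44.2% were called, 16.4% higher and 27.8% lower. A change of at least 2-fold was called for Lcn2 and Saa3 alone among the 9, against 7.58% of named genes called with a change of that size, 6.14% higher and 1.44% lower. Caerulein and NaCl arrays were fully separated, with caerulein higher, for Lcn2, Saa3 and Lbp, that is 3 of 9 genes against 16.7% of named genes, while 20.6% of named genes were fully separated with caerulein lower. In an unadjusted two-sided exact permutation test over the 462 allocations of the arrays, where the smallest p possible is 0.00433, Lcn2, Saa3 and Lbp had that p, Cfb and Hp 0.00866, Steap4 0.0303, Saa1 and Orm1 0.0433 and Saa2 0.212. In RNA of a whole organ, fewer cells of a type and less RNA per cell cannot be told apart.

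**Figure D1:**
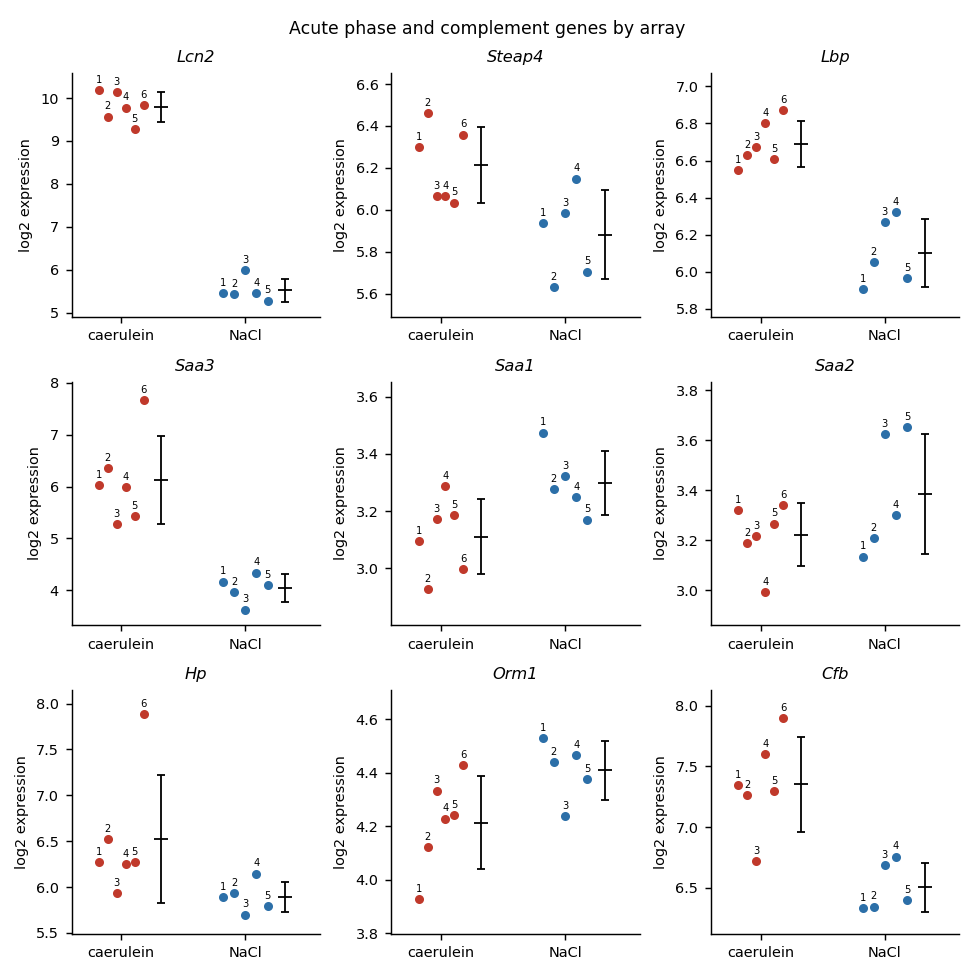
Log2 expression of the 9 measured genes on each array, caerulein (red, 6 arrays) and NaCl (blue, 5 arrays), with replicate numbers beside the points and the group mean and SD as a bar; each panel has its own axis, which does not start at 0. Lcn2, Saa3 and Lbp do not overlap between groups, and caerulein replicate 6 is the highest caerulein array for Hp (7.89) and Saa3 (7.67).

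The size of the differences depended on how the arrays were scaled. The array medians of the deposited log2 values were 5.20 to 5.25 in caerulein and 5.35 to 5.40 in NaCl. When each array was shifted to an equal mean of 16 commonly used reference genes, the median over all probe sets moved by -0.74. Of those 16 genes 10 were themselves called higher as deposited, Actb (beta-actin) by 2.93. On that scale Lcn2 (3.53) and Saa3 (1.34) were still called higher, Cfb was at 0.11 and not called, Lbp (-0.16) and Hp (-0.11) had the opposite sign without passing, and Steap4 was called lower at -0.41. Saa1 (-0.93), Saa2 (-0.91) and Orm1 (-0.94) were called lower there, close to the median of all named genes on that scale (-0.88). After a second quantile normalization or cyclic loess the same 5 genes were called higher as with the deposited values.

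**Figure D2:**
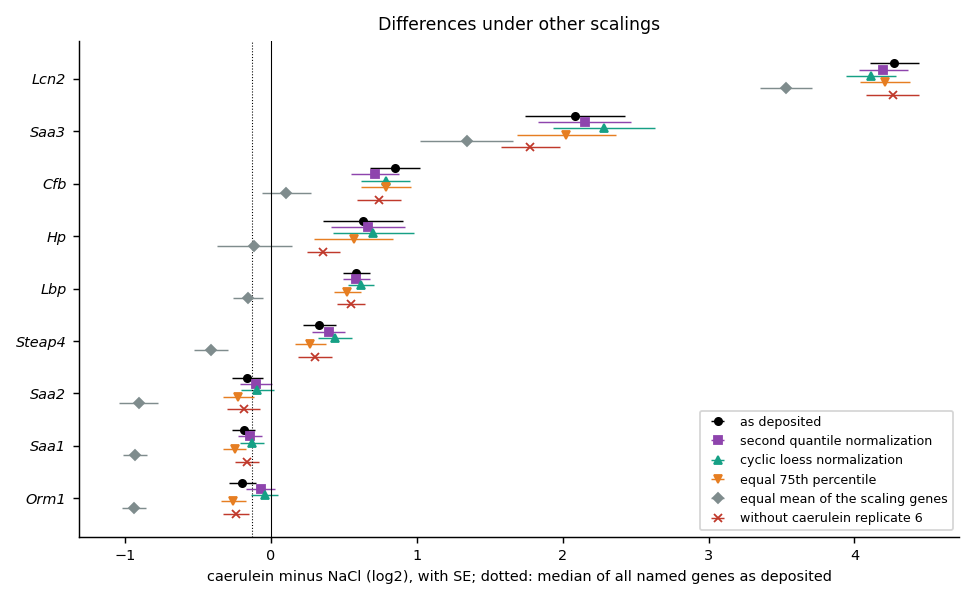
Log2 difference (caerulein minus NaCl) of the 9 genes with its standard error, as deposited, after 4 other scalings (the reference genes are the scaling genes of the legend) and without caerulein replicate 6; the solid line is 0 and the dotted line the median of all named genes as deposited (-0.13). Lcn2 and Saa3 stay right of 0 in each setting shown, whereas Hp, Lbp and Steap4 fall left of 0 with an equal mean of the reference genes.

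Among proteins that bind or move iron, Lcn2 encodes lipocalin 2, which withholds iron from bacteria by binding their siderophores. Its log2 expression in caerulein was lowest at 9.27, with a median of 9.81 and a highest value of 10.18. In NaCl the arrays read 5.46, 5.43, 5.99, 5.45 and 5.28. The lowest caerulein array was more than 3 log2 units above the highest NaCl array, NaCl replicate 3. The means were 9.79 ± 0.34 in caerulein (SD, n = 6) and 5.52 ± 0.27 in NaCl (SD, n = 5), a 19.3-fold difference (log2 4.27, SE 0.17, limma adjusted p = 1.0e-09), which ranked 9 from the top among the 19938 named genes. Leaving out any 1 array gave 4.19 to 4.39. Slc22a17, which encodes a receptor reported to take up lipocalin 2, had a difference of -0.61 (SE 0.09) and was called lower. Lrp2, which encodes megalin, another receptor for it, was at -0.14 and not called.

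Steap4 encodes a membrane metalloreductase for iron and copper that tumour necrosis factor induces in fat cells. It read 6.03 to 6.46 in caerulein (median 6.18), against 5.94, 5.63, 5.98, 6.15 and 5.70 in NaCl. The groups overlapped, since NaCl replicate 4 lay above 3 caerulein arrays. The difference was 0.33 (SE 0.11, 1.26-fold, limma adjusted p = 0.0287). The call was lost without NaCl replicate 2 or 5 or without caerulein replicate 1, 2 or 6 (limma adjusted p = 0.0528 to 0.0727), and with equal 75th percentiles (limma adjusted p = 0.0526), and it turned to -0.41 with an equal mean of the reference genes. Of the related Steap genes, Steap1 (0.08) and Steap2 (0.12) were not called and Steap3, the transferrin-cycle reductase, was called lower, with a difference of -0.31 (SE 0.08).

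The list of Steap relatives and iron handling genes held 13 measured genes, of which 5 were called higher and 3 lower (median difference 0.12). The counts were 3 higher and 8 lower with an equal mean of the reference genes. Hmox1, the haem-degrading oxygenase, was 7.84-fold higher (log2 2.97, SE 0.13). Cp, the ferroxidase ceruloplasmin and an acute phase protein itself, was 4.13-fold higher (log2 2.05, SE 0.10). Slc11a2, the ferrous iron importer, was lower, with a difference of -0.49 (SE 0.08). None of these 3 genes, picked for their large differences, overlapped between caerulein and NaCl. Of all 13 genes 4 were fully separated with caerulein higher and 3 with caerulein lower, against 16.7% and 20.6% of named genes.

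The promoters of Lcn2 and Steap4 are shown because both genes were called higher as deposited, Lcn2 the most of the 9. They are the 250 bases before the RefSeq start on build GRCm38.p6, written 5′ to 3′ on the gene's strand, Lcn2 from chr2:32387740-32387989 (minus strand) and Steap4 from chr5:7960222-7960471 (plus strand). Capitals mark matches to a C/EBP-type motif (TTGCNNAA), a STAT-type motif (TTCNNNGAA) and an NF-kB-type motif (GGNNTTTCC), searched on both strands in the window that adds 50 bases after the start.
Lcn2: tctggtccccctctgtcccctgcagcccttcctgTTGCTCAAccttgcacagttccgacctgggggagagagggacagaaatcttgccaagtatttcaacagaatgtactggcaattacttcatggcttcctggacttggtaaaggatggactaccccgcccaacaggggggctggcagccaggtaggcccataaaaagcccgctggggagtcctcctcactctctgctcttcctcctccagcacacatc
Steap4: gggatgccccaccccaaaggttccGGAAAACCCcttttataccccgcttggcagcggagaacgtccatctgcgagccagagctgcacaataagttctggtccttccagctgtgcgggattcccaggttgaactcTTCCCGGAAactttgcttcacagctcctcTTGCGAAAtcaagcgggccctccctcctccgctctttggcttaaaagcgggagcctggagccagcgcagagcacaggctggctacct
Of all 32851 promoter windows in the RefSeq table, 10.8% held the C/EBP-type motif, 8.3% the STAT-type motif and 5.82% the NF-kB-type motif. Lcn2 held 1 C/EBP-type match. Steap4 held 1 C/EBP-type match, 1 NF-kB-type match and a STAT-type palindrome that matched on both strands. Promoters of 6 of the 10 genes are in the table, namely those of Lcn2, Saa1, Saa2, Saa3, C3 and Steap4. A match describes letters and is not a measured binding site.

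Among the serum amyloid A genes, which encode apolipoproteins of the acute phase, Saa3 alone was called higher as deposited. Saa3 is the form made outside the liver in mice, by macrophages and fat cells among others. It read 6.03, 6.36, 5.28, 6.00, 5.44 and 7.67 in caerulein replicates 1 to 6, against 4.17, 3.97, 3.63, 4.34 and 4.11 in NaCl. All caerulein arrays lay above all NaCl arrays, and caerulein replicate 6 stood well above the next, replicate 2. The difference was 2.09 (SE 0.34, 4.24-fold, limma adjusted p = 3.4e-04), rank 215 from the top among named genes. Without caerulein replicate 6 it was 1.78 (SE 0.20, limma adjusted p = 2.7e-05).

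Saa1 and Saa2 encode the forms that the mouse liver secretes. Saa1 read 2.93 to 3.29 in caerulein and 3.17 to 3.47 in NaCl. Saa2 read 2.99 to 3.34 in caerulein and 3.13 to 3.65 in NaCl. All these values lay below the array medians (5.20 to 5.25 in caerulein, 5.35 to 5.40 in NaCl), so they may be background. The NaCl values of Saa3 also lay below the array medians. The differences of Saa1 and Saa2 were -0.19 (SE 0.08, limma adjusted p = 0.0727) and -0.16 (SE 0.11, limma adjusted p = 0.235), near the median of all named genes. Saa1 was called lower without caerulein replicate 4 (limma adjusted p = 0.0412) and with equal 75th percentiles (limma adjusted p = 0.0199). Saa4, the constitutive form, was at -0.11 (SE 0.09) and not called. In the RefSeq annotation of chromosome 7 the 4 measured genes lie in the order Saa3, Saa4, Saa1 and Saa2, so the gene called higher as deposited lies at the edge of the cluster. RefSeq lists Saa2 as a synonym of Saa1 and Saa1 as a synonym of Saa2. The probe sets were matched through their Entrez identifiers and RefSeq transcripts. Saa1 and Saa2 are near-identical copies that probes may not separate.

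The promoters of the 3 Saa genes among the 9 are shown because Saa1 and Saa2 differ from Saa3 both in sequence and in their values. They are again the 250 bases before the RefSeq start on GRCm38.p6, with the motifs above in capitals, Saa3 from chr7:46715677-46715926 (minus strand), Saa1 from chr7:46742981-46743230 (minus strand) and Saa2 from chr7:46751583-46751832 (plus strand).
Saa3: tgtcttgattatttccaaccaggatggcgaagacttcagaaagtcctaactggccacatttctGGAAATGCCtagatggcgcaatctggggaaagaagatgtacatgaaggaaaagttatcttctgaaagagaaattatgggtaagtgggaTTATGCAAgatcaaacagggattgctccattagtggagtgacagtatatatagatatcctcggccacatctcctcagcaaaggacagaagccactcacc
Saa1: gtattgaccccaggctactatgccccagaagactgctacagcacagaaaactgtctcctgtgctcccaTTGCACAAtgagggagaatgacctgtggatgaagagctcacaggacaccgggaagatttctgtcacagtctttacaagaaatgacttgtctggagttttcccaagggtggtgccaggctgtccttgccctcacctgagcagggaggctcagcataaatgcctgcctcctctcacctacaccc
Saa2: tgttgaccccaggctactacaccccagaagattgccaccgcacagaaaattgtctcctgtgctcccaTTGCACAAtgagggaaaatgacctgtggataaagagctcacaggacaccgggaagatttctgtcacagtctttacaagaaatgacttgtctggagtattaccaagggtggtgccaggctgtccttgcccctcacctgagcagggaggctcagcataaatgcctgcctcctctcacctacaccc
In a global alignment 94.8% of columns were identical between Saa1 and Saa2, against 48.9% between Saa3 and Saa1 and 47.9% between Saa3 and Saa2. Saa1 and Saa2 each held 1 C/EBP-type match with the same letters (TTGCACAA) and no NF-kB-type match. Saa3 held 1 C/EBP-type match (TTGCATAA) and 1 NF-kB-type match (GGCATTTCC), both on the opposite strand. None of the 3 held a STAT-type match in this window.

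**Figure D3:**
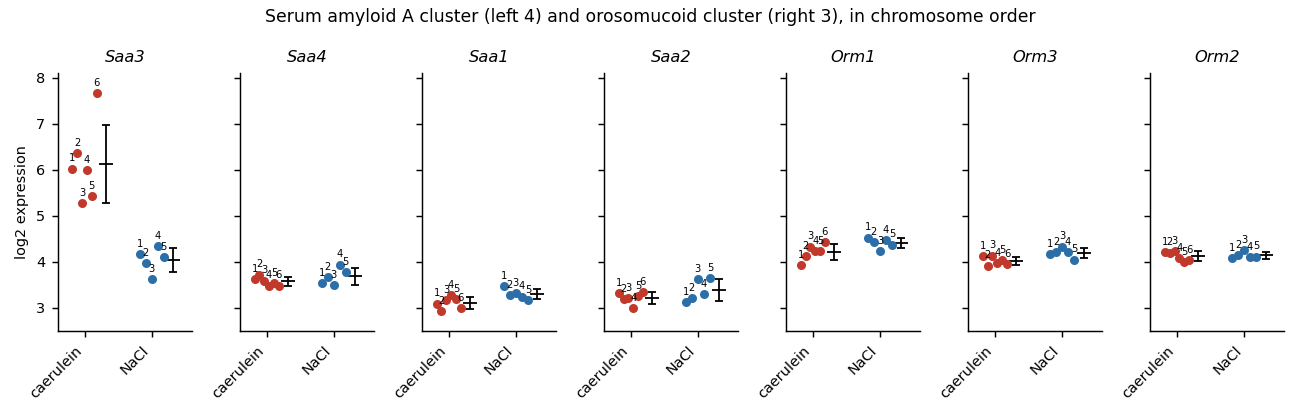
Log2 expression by array of the serum amyloid A genes and the orosomucoid genes in chromosome order, caerulein (red, 6 arrays) left of NaCl (blue, 5 arrays), with replicate numbers, group means and SD. Saa3 separates the groups and the other 6 genes overlap; levels of different probe sets are not comparable.

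Hp encodes haptoglobin, which binds free haemoglobin, and Orm1 encodes orosomucoid, a plasma carrier protein of the acute phase. Hp read 6.27, 6.53, 5.93, 6.25, 6.27 and 7.89 in caerulein replicates 1 to 6, against 5.89, 5.93, 5.70, 6.15 and 5.79 in NaCl. Caerulein replicate 6 lay far above the other arrays, while caerulein replicate 3 lay below NaCl replicate 4. The difference was 0.63 (SE 0.28, 1.55-fold) and did not pass (limma adjusted p = 0.0812). Without caerulein replicate 6 the difference was smaller, 0.36 (SE 0.11), and passed (limma adjusted p = 0.0260). It also passed without caerulein replicate 3 (0.75, limma adjusted p = 0.0464). The call of Hp rests on which caerulein arrays are included, and it had the opposite sign (-0.11) with an equal mean of the reference genes.

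Orm1 read 3.93 to 4.43 in caerulein and 4.24 to 4.53 in NaCl, a difference of -0.20 (SE 0.09, limma adjusted p = 0.0977). Orm1 thus read below the array medians of both groups and may be background. Its neighbours on chromosome 4, Orm3 (-0.17) and Orm2 (-0.01), were not called. Orm1 passed as lower with equal 75th percentiles (-0.26, limma adjusted p = 0.0278). The orosomucoid genes are close copies, which their probes may not separate.

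Cfb encodes complement factor B, the serine protease of the alternative pathway. It read 7.35, 7.26, 6.72, 7.60, 7.30 and 7.90 in caerulein replicates 1 to 6, against 6.33, 6.34, 6.69, 6.76 and 6.40 in NaCl. Caerulein replicate 3 was the only caerulein array inside the NaCl range. The means were 7.35 ± 0.39 in caerulein (SD, n = 6) and 6.50 ± 0.20 in NaCl (SD, n = 5). The difference was 0.85 (SE 0.17, 1.80-fold, limma adjusted p = 0.00160), and leaving out any 1 array gave 0.74 to 0.98. It was 0.11 and not called with an equal mean of the reference genes (limma adjusted p = 0.549). C2, the related protease gene of the classical pathway, is its neighbour in the RefSeq annotation of chromosome 17 and was at -0.12 (SE 0.09), not called.

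Of the other components of complement activation, 22 were measured. Of these 22 genes, 0 were called higher and 7 lower, with a median of -0.17, and 15 did not pass. The lower calls were near the share over all named genes, of which 34.3% were called lower and 20.3% higher (median difference -0.13). The largest differences were those of C8g, a chain of the membrane attack complex (-0.38, SE 0.11), and Colec11, a collectin that recognises sugars (-0.32, SE 0.09). After cyclic loess or a second quantile normalization 2 of the 22 were lower, against 9 with equal 75th percentiles and all 22 with an equal mean of the reference genes. C1qa (0.13), C1qb (0.15) and C4b (0.23) of the classical pathway were not called.

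Complement regulators and receptors held 17 measured genes, with a median difference of 0.04. Of these, 6 passed as higher and 3 as lower, against 20.3% higher and 34.3% lower over all named genes. C3ar1, the receptor for the fragment C3a, read 5.94 to 6.96 in caerulein and 4.70 to 5.55 in NaCl (2.94-fold higher, log2 1.56, SE 0.21). Itgam, the alpha chain of complement receptor 3, was 2.85-fold higher and C5ar1, the C5a receptor, 2.42-fold higher. These receptors are carried by myeloid cells, whose markers are given further on, and Itgam is itself on the macrophage marker list. Clu, the secreted regulator clusterin, was 2.70-fold higher. Cd59a, which blocks the membrane attack complex, fell to 4.08 to 4.98 in caerulein, against 5.24 to 6.17 in NaCl (2.04-fold lower, difference -1.03, SE 0.18). With an equal mean of the reference genes 4 of the 17 were higher and 13 lower.

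Lbp encodes the lipopolysaccharide binding protein. It read 6.55, 6.63, 6.67, 6.80, 6.61 and 6.87 in caerulein replicates 1 to 6, against 5.91, 6.05, 6.27, 6.32 and 5.96 in NaCl. The groups did not overlap, and the spread within caerulein was the smallest of the 5 genes called higher (SD 0.12, n = 6). The difference was 0.59 (SE 0.09, 1.50-fold, limma adjusted p = 2.4e-04), 0.54 to 0.64 with any 1 array left out, but -0.16 with an equal mean of the reference genes. Among the partners of Lbp in lipopolysaccharide recognition, Ly96 and Cd14 had larger log2 differences than Lbp and Tlr4 a smaller one. Ly96, the co-receptor MD-2, read 7.40 to 8.27 in caerulein and 4.10 to 4.79 in NaCl (9.93-fold higher, log2 3.31, SE 0.17). Cd14 read 7.14 to 7.69 in caerulein and 4.87 to 5.39 in NaCl (4.94-fold higher). The signalling receptor Tlr4 was higher by 0.38 (SE 0.11, limma adjusted p = 0.0180), with overlapping groups, and was at -0.37 with an equal mean of the reference genes. Of 11 measured receptors of acute phase proteins, 7 were called higher and 2 lower (median difference 0.34). With an equal mean of the reference genes 2 were higher, and 9 lower. Only 4 of the 11 passed as higher when the values were quantile normalized again, and likewise 4 without caerulein replicate 6 and NaCl replicates 2 and 4.

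Of 20 other positive acute phase proteins that were measured, 6 were higher and 4 lower (median difference -0.11), and the 6 higher ones were Serpina3n, Cd14, Cp, Mt2, Mt1 and Il1rn. Serpina3n, a serine protease inhibitor, read 8.18 to 8.89 in caerulein and 4.45 to 5.35 in NaCl (10.6-fold higher, log2 3.41, SE 0.17). The 4 lower ones, Hpx, Fgg, A2m and Fgb, had differences between -0.26 and -0.22, and 0 of the 20 were lower after cyclic loess or a second quantile normalization. Hpx, the haem-binding hemopexin, was at -0.26 (SE 0.08). Under each of the 4 other scalings 6 of the 20 were higher, and with an equal mean of the reference genes 13 were lower. Of 8 measured negative acute phase proteins, which the liver makes less of in inflammation, 5 were lower and 0 higher (median difference -0.24). For comparison, 34.3% of all named genes were called lower, and their median was -0.13. Of the 5, Alb (-0.36), Rbp4 (-0.28) and Apom (-0.20) read below the array medians on all arrays of both groups and may be background. Ttr, transthyretin, was 1.76-fold lower (difference -0.82, SE 0.19) and Apoa1 1.41-fold lower (difference -0.50, SE 0.11). After cyclic loess 2 of the 8 were lower, and all 8 with an equal mean of the reference genes.

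**Figure D4:**
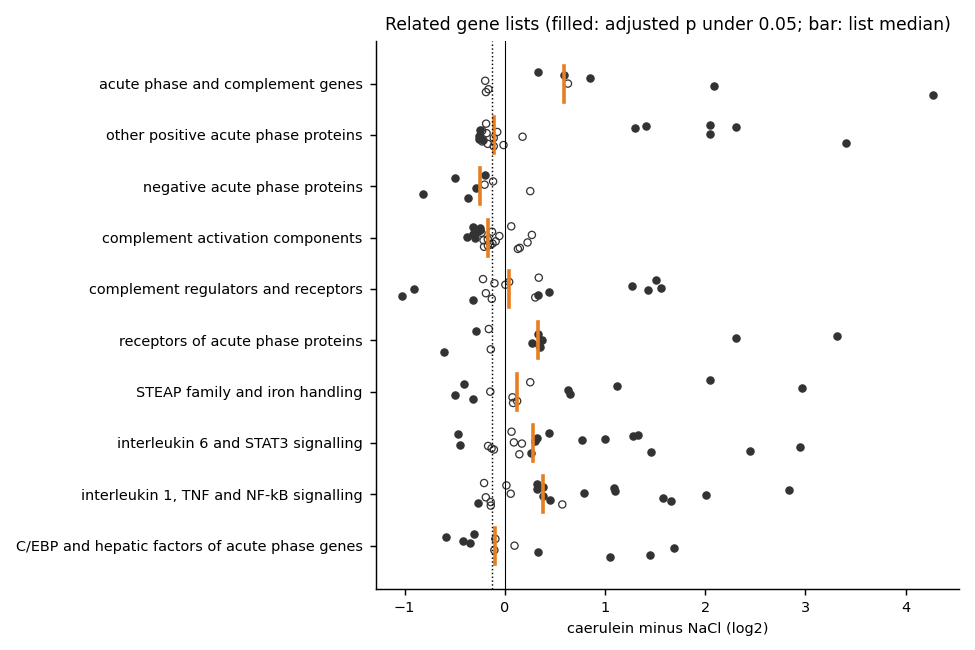
Log2 difference (caerulein minus NaCl) as deposited of each measured gene in the related lists, filled where the limma adjusted p was under 0.05, with the list median as a bar, 0 as a solid line and the median of all named genes (-0.13) as a dotted line. The acute phase and complement genes have a median of 0.59, and the components of complement activation hold 0 genes called higher of 22.

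Over all named genes 20.3% were called higher and 34.3% lower (median difference -0.13). In the list of interleukin 6 and STAT3 signalling, 11 of 20 measured genes were higher and 2 lower (median difference 0.28). Osmr, a receptor chain for oncostatin M, was 7.71-fold higher (log2 2.95, SE 0.14), and Lif, a cytokine of the same family, 5.46-fold higher (log2 2.45, SE 0.22). The factor Stat3 was 2.42-fold higher and the shared receptor chain Il6st 2.74-fold higher, whereas Il6 itself was at 0.15 (SE 0.09) and not called. Socs1, a feedback inhibitor, was lower, with a difference of -0.47 (SE 0.07). In the list of interleukin 1, TNF and NF-kB signalling, 12 of 20 were higher and 1 lower (median difference 0.38). Rela, the NF-kB subunit p65, was 7.15-fold higher (log2 2.84, SE 0.11) and Irak3, an inhibitory kinase of that pathway, 4.03-fold higher (log2 2.01, SE 0.15). Il1b (0.57, SE 0.23, limma adjusted p = 0.0608) and Tnf (-0.14, SE 0.14) were not called, and Il1rap, a receptor chain for interleukin 1, was lower at -0.26. With an equal mean of the reference genes the 2 lists had 5 and 4 genes higher, and 13 and 11 lower.

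Of 11 measured C/EBP and hepatic factors, 4 were higher and 4 lower. The 4 higher ones were all C/EBP genes. Cebpg was 3.22-fold higher (log2 1.69, SE 0.09), Cebpb, an inducer of acute phase genes, 2.74-fold higher (log2 1.45, SE 0.20), and Cebpa and Cebpd were at 1.05 and 0.33, Cebpd turning to -0.41 with an equal mean of the reference genes. Nr3c1, the glucocorticoid receptor, was lower (difference -0.58, SE 0.06), as were Foxa2, Hnf4a and Creb3l3. With an equal mean of the reference genes 3 were higher and 8 lower.

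Caerulein replicate 6 was the highest caerulein array for 6 of the 9 genes, namely Saa3, Hp, Cfb, Lbp, Orm1 and Saa2, and NaCl replicate 4 the highest NaCl array for 5, namely Saa3, Hp, Cfb, Lbp and Steap4. Of the cell type marker lists, the macrophage, neutrophil, adipocyte, and stellate and fibroblast means were also highest on caerulein replicate 6. On NaCl replicate 4 the macrophage, adipocyte and lymphoid means were the highest of the NaCl arrays, and the means of the other lists were not. The mean log2 level of 11 macrophage markers was 6.89 on caerulein replicate 6 and 5.97 to 6.68 on the other caerulein arrays, against 5.34 to 5.43 in NaCl. Of these 11 markers 8 were called higher and 0 lower, led by Lyz2 (2.01) and Chil3 (1.97). Csf1r (0.16), Spi1 (0.20) and Mrc1 (0.33) were not called. On the scale of the reference genes 5 of the 11 were higher and 4 lower. The mean of 15 neutrophil markers was 4.86 to 5.38 in caerulein, again highest on replicate 6, and 4.86 to 4.96 in NaCl. Of these 15 markers 2 were higher (Lyz2, and Mmp8 at 0.41, which was -0.33 with an equal mean of the reference genes) and 3 lower, but cyclic loess gave 4 higher and 0 lower, and an equal mean of the reference genes 1 higher and 13 lower. Lyz2 is on both lists. Of the 15 neutrophil markers 10 were not called, among them Cxcr2 (0.57), S100a8 (0.33), S100a9 (0.15) and Ly6g (-0.11). Without caerulein replicate 6 the neutrophil list had 1 higher and 4 lower, and the macrophage list 8 higher and 0 lower.

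Fat markers also set arrays apart, and stellate and fibroblast markers, given below, were likewise highest on caerulein replicate 6. The mean of 11 adipocyte markers was 5.95 on caerulein replicate 6 and 5.31 to 5.54 on the other caerulein arrays, against 6.05 and 6.08 on NaCl replicates 2 and 4 and 5.57 to 5.67 on the other NaCl arrays. Adipoq, the fat hormone adiponectin, read 4.75 on caerulein replicate 6 and 3.86 to 4.14 on the other caerulein arrays. In NaCl it read 4.78 and 5.06 on replicates 2 and 4 and 3.93 to 4.15 on the rest. Car3, also on the list, was likewise highest on these arrays of each group. Plin1 did not set caerulein replicate 6 apart, since its 5.52 there lay within the range of the other caerulein arrays. On NaCl replicates 2 and 4 Plin1 (6.01 and 5.95) was only slightly above the rest. As a group difference 1 of the 11 was higher (Pparg, 0.41, but -0.33 with an equal mean of the reference genes) and 5 lower, among them Lpl (-0.65) and Plin1 (-0.47), and 2 were lower after cyclic loess, but all 11 with the reference genes. Without these 3 arrays, a choice made after the marker levels had been seen, Lcn2 (4.21), Saa3 (1.85), Cfb (0.77), Lbp (0.61) and Hp (0.46, limma adjusted p = 0.0189) were called higher, and Steap4 was not (0.31, limma adjusted p = 0.0770). The part of macrophages, stellate cells and fat in the values of the 9 genes was not tested.

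**Figure D5:**
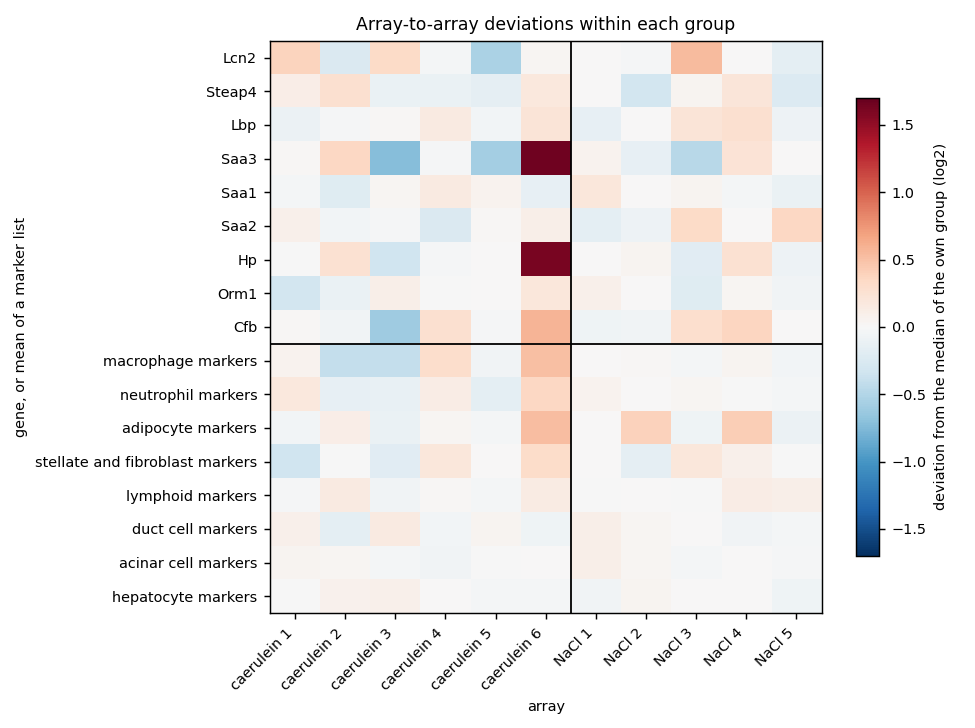
Deviation of each array from the median of its own group (log2, red above and blue below) for the 9 genes and for the mean of 8 marker lists, with caerulein left of NaCl. Caerulein replicate 6 is highest for Saa3, Hp and Cfb and for the macrophage, neutrophil, adipocyte and stellate lists, and for Lcn2 it lies close to the group median.

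Hepatocyte markers were not high on caerulein replicate 6. The mean of 13 hepatocyte markers was 4.72 to 4.83 in caerulein and 5.03 to 5.14 in NaCl, below the array medians. Of these, 8 were lower (4 after cyclic loess, 13 with the reference genes) and 0 higher, led by Ttr and Cyp2e1 (-0.79). Caerulein replicate 6 ranked 5 of 6. Ttr was brighter than the list mean (7.74 in caerulein, 8.55 in NaCl), and which cells it came from was not tested. Ttr, Alb, Apoa1 and Ahsg are also on the list of negative acute phase proteins. The pancreas label matched its markers, since 15 acinar genes had a mean of 12.79 to 12.90 in caerulein and 13.15 to 13.28 in NaCl. Of these, 6 were lower and 1 higher, with Bhlha15 (4.00-fold lower) and Rbpjl (2.69-fold lower), factors of the secretory programme, at the largest differences and Ptf1a, which specifies the lineage, at 0.55 (-0.19 with an equal mean of the reference genes). The acinar count was 12 lower with a trended robust variance prior or with equal 75th percentiles, and 14 lower with the reference genes. The mean of 8 duct markers was 7.87 to 8.20 in caerulein and 6.55 to 6.70 in NaCl, where 5 were higher and 2 lower, Cldn4 by 5.76, Krt19 by 4.39 and the mucin gene Muc1 at -1.14, while the reference genes gave 3 higher and 4 lower. Of 9 lymphoid markers 1 was higher (Ptprc, 0.52, but -0.22 with an equal mean of the reference genes) and 4 lower (Cd8a at -0.39; 1 lower after cyclic loess and 8 with the reference genes), with means of 5.03 to 5.25 in caerulein and 5.24 to 5.37 in NaCl. Of 10 stellate and fibroblast markers 3 were higher (Col3a1 at 0.83) and 2 lower (Lum at -0.77), against 20.3% and 34.3% over all named genes. The counts were 2 higher and 3 lower after cyclic loess or quantile normalization, and likewise without caerulein replicate 6. With the reference genes 0 were higher and 7 lower. The means were 6.69 to 7.34 in caerulein, highest on replicate 6, and 6.79 to 7.13 in NaCl. Whole arrays correlated at 0.981 to 0.991 within groups and 0.938 to 0.955 between them.

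Lcn2 was highest on caerulein replicate 1 among the caerulein arrays and on replicate 3 among the NaCl arrays. After removal of the group means, its deviations over the 11 arrays were most like those of Cavin1 (r = 0.915, rho = 0.845), Crct1 (r = 0.899, rho = 0.745), Ier5 (r = 0.891, rho = 0.855), Pdlim4 (r = 0.881, rho = 0.836) and Adcy5 (r = 0.865, rho = 0.791) among 11137 named genes in the brighter part of the table, with predicted and RNA genes left out. These are the highest of many values, so they are a description without a p-value. Without the 2 arrays farthest from the median, NaCl replicate 3 and caerulein replicate 5, r was 0.722 to 0.877 for the 5 genes. As group differences, Ier5 (2.16), Cavin1 (1.43) and Crct1 (0.52) were called higher, Crct1 falling to -0.22 with an equal mean of the reference genes, and Pdlim4 (-0.53) and Adcy5 (-0.28) lower. The same ranking could not be made for C3, which had no probe set.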

How the data were processed

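Total RNA of 11 mouse pancreas samples was measured on Affymetrix arrays, in 6 caerulein and 5 NaCl samples grouped by their titles. The authors deposited log2 expression values for 35556 probe sets; per the submitters' processing notes these were made with RMA, oligo and limma, and neither their versions nor the genome build is stated there. RMA sets the arrays to similar distributions, so changes shared by most genes are partly removed. Nothing says which probe sets are above background, and precision is limited by how many arrays there are. In the platform annotation 21789 probe sets had 1 gene symbol, 1621 several and 12146 were not listed.

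The deposited values were fitted with limma 3.58.1 in R 4.3.3 (lmFit and eBayes, caerulein minus NaCl, all arrays), with Benjamini-Hochberg adjustment over all probe sets and a threshold of 0.05. The fit was tested on simulated data. Exact permutation tests used scipy 1.17.1 and promoter alignments Biopython 1.88, in Python 3.11.15. The members and the 17 other lists were chosen with earlier results of these data known, and so were the arrays left out for their fat markers. Text examples from each list were the 2 called genes with the largest absolute difference and the called gene with the largest difference against the majority of the called genes of its own list, where there was one. The likeness examples were the 5 genes closest to Lcn2. Other genes were named for their role, with their values known. Scaling, normalization, variance prior, array weights, a filter on dim probe sets, a replicate block and leaving out arrays were tried as alternatives. C3 was not analysed here. Promoters are from RefSeq (GRCm38.p6), and gene order is from RefSeq's gene table.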

Additional observations from a re-analysis of the deposited data

Results flagged for a closer look

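In 6 of 110 groups tested, over 55 genes, the highest or lowest array lay far from the nearest other array for the spread of its group; chance gives about 1 in 20 groups. Hp on caerulein replicate 6 was the highest of the caerulein arrays at 7.89, with the next at 6.53. Saa3 on that array (7.67, with the next at 6.36) was not flagged by this rule. Lcn2 on NaCl replicate 3 was the highest of the NaCl arrays at 5.99, with the next at 5.46, and stayed far below all caerulein arrays. Apoa1 on caerulein replicate 1 was the lowest of its group at 4.90, with the next at 5.31. Cd59a on caerulein replicate 3 was the lowest of its group at 4.08, with the next at 4.65. Serpina3n on NaCl replicate 4 was the lowest of its group at 4.45, with the next at 5.27. C8g on NaCl replicate 5 was the lowest of its group at 4.44, with the next at 4.63.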

How the results depend on the processing

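Calls of lower expression depended most on the scaling. As deposited, 5829 probe sets were higher and 9884 lower; 5467 were lower after cyclic loess and 6446 without the dimmer 50% of probe sets, a filter that tests fewer. With an equal mean of the reference genes 1687 were higher and 30816 lower, and the lower share of calls was 94.8%, against 62.9% as deposited, 56.3% after quantile normalization, 46.4% after loess, 72.1% with equal 75th percentiles and 54.1% with the dim filter. Over all list genes 67 were higher and 58 lower; lower ones numbered 37 after quantile normalization, 32 after loess and 173 with the reference genes, which left 32 higher. Of the 9 acute phase and complement genes, 4 were lower and 2 higher with the reference genes, 2 were lower with equal 75th percentiles and 1 without caerulein replicate 4. Among genes named in the text and called as deposited, the reference genes turned the sign of Lbp (-0.16), Steap4 (-0.41), Tlr4 (-0.37), Cebpd (-0.41), Ptf1a (-0.19), Mmp8 (-0.33), Pparg (-0.33), Ptprc (-0.22) and Crct1 (-0.22). Among those not called, it turned for Hp (-0.11), Il1b (-0.17), C4b (-0.52), C1qa (-0.61), C1qb (-0.59), Il6 (-0.60), Steap1 (-0.66) and Steap2 (-0.62). It also turned for Cxcr2 (-0.17), S100a8 (-0.41), S100a9 (-0.59), Csf1r (-0.59), Spi1 (-0.54) and Mrc1 (-0.41). Leaving out each array gave 5471 to 5753 higher and 8645 to 9338 lower probe sets, 61 to 65 higher and 50 to 56 lower list genes, and 4 to 6 higher and 0 to 1 lower of the 9. Lcn2 was called in all 20 alternatives and Saa3 in all 19 that tested it, whereas Steap4 was called in 12 of 20, once as lower. The dim filter left out Saa1, Saa2, Saa3 and Orm1. The cause of these shifts was not tested.

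The replicate block could use 5 pairs, without caerulein replicate 6. It gave 5452 higher and 7909 lower probe sets, 59 higher and 51 lower list genes, and 5 higher and 0 lower of the 9, with Hp called (0.36, limma adjusted p = 0.0182) and Steap4 not (0.30, limma adjusted p = 0.104). Same-numbered arrays correlated at -0.052 to 0.060 after removal of group means and 4 of 5 correlated best with their own number, a hint from the data and not from the design. The labels give no shared animal, batch or day for a number and these correlations were near 0, so the arrays were not treated as paired. No member had another single-symbol probe set, so that alternative was not run.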
